A study of Mus musculus with 6 samples.

Results

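The 10 genes described here encode the caveolar coat and the EHD proteins: Ehd1, Ehd2, Ehd3 and Ehd4, the caveolins Cav1 and Cav2, the cavins Cavin1, Cavin2 and Cavin3, and Pacsin2. They were taken by gene symbol from the 53700 genes of the expression table, and each symbol named a single Ensembl identifier. Ehd2 drew attention because it was higher in cells overexpressing SEMA6A, and the other 9 genes were grouped with it by family, to ask whether its rise came with that of other caveolar genes. The values of Ehd2 are therefore a description without a test. RNA was sequenced from SL4 cells, a luciferase-expressing mouse colorectal cancer (CRC) line. There were 3 control libraries without SEMA6A overexpression (pLV-Control) and 3 libraries of cells that stably overexpressed SEMA6A from a lentivirus (pLV-SEMA6A). No source says that the libraries came from separate cultures or that SEMA6A lines were made more than once, so p-values measure the spread between these libraries only, which may be technical, and SEMA6A overexpression and a difference between the lines cannot be told apart. The study calls the comparison cells both SL4 and pLV-Control, and whether they carried an empty vector is not given in the sources used here.

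Caveolae are flask-shaped pits of the plasma membrane, abundant in endothelium, fat and muscle, which take part in endocytosis, lipid uptake and the buffering of membrane tension. Caveolins insert into the inner leaflet and bind cholesterol, and cavins assemble on them as a coat from the cytosol. EHD proteins are dynamin-related ATPases that carry a protein-binding EH domain at the C-terminus. EHD2 gathers at the neck of caveolae and holds them at the surface, whereas EHD1, EHD3 and EHD4 act mainly in the return of cargo from endosomes. PACSIN2, also named syndapin II, is an F-BAR protein that bends the caveolar neck and binds EHD proteins.

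Expression is given as TPM, a relative transcript abundance corrected for transcript length, so levels of different genes can be compared. TPM keeps no read numbers, and the depth behind each value is unknown. Fold changes were computed on log2(TPM + 1) with limma over the 12510 genes whose mean across the 6 libraries reached 1 TPM, and an adjusted p under 0.05 counted as a change. Fold changes carry their standard error (SE). In all, 5959 genes (47.6%) passed, 2436 of them higher (19.5%) and 3523 lower (28.2%) in pLV-SEMA6A. The median log2 value of a library was 0.093 lower in pLV-SEMA6A, and with each library centred on its median 26.9% of genes were higher and 19.8% lower. Sema6a itself was listed at 0 in all control libraries, while the pLV-SEMA6A libraries read 98.7, 118 and 112 TPM. Of 12 intestinal epithelial markers, Epcam, Cdx1 and Cdx2 were listed at 0 in all 6 libraries, and Lgals4 alone reached a mean of 1 TPM. Lgals4 read 1.78 to 2.33 TPM in pLV-Control and 0 to 0.81 TPM in pLV-SEMA6A. Its log2 fold change was −1.24 ± 0.25 (SE, limma adjusted p = 0.0076). The 12 markers summed to 2.11 to 2.96 TPM in pLV-Control and 0.68 to 1.6 TPM in pLV-SEMA6A, so these epithelial markers of a colorectal line were absent or near 0.

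Of the 10 genes, 9 were measured above the filter and Ehd3 was listed at 0 in every library. Besides Ehd2, 5 genes rose (Ehd1, Cav1, Cavin1, Cavin3 and Pacsin2) and 3 fell (Ehd4, Cav2 and Cavin2), so the rise of Ehd2 came with that of Cav1 and Cavin1 but with a fall of Cavin2. The background was 19.5% of tested genes higher and 28.2% lower, and nothing is read from the count, since the genes were proposed with results of this contrast in view. In bulk RNA, fewer cells of a type and less RNA per cell cannot be told apart. Without Ehd2 the median log2 fold change was 0.32 over 8 genes, from −0.49 for Cavin2 to 0.55 for Cav1 and Cavin3, beside −0.06 over all genes tested. In all 9 genes, the 3 libraries of each group lay apart from those of the other, as they did in 58.5% of all tested genes (23.8% higher and 34.7% lower in pLV-SEMA6A). With a minimum absolute log2 fold change of 0.5 as well, Cav1 and Cavin3 were higher besides Ehd2, which was not tested. None of the 10 genes was lower, where the background was 5.12% higher and 10.8% lower.

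**Figure D1:**
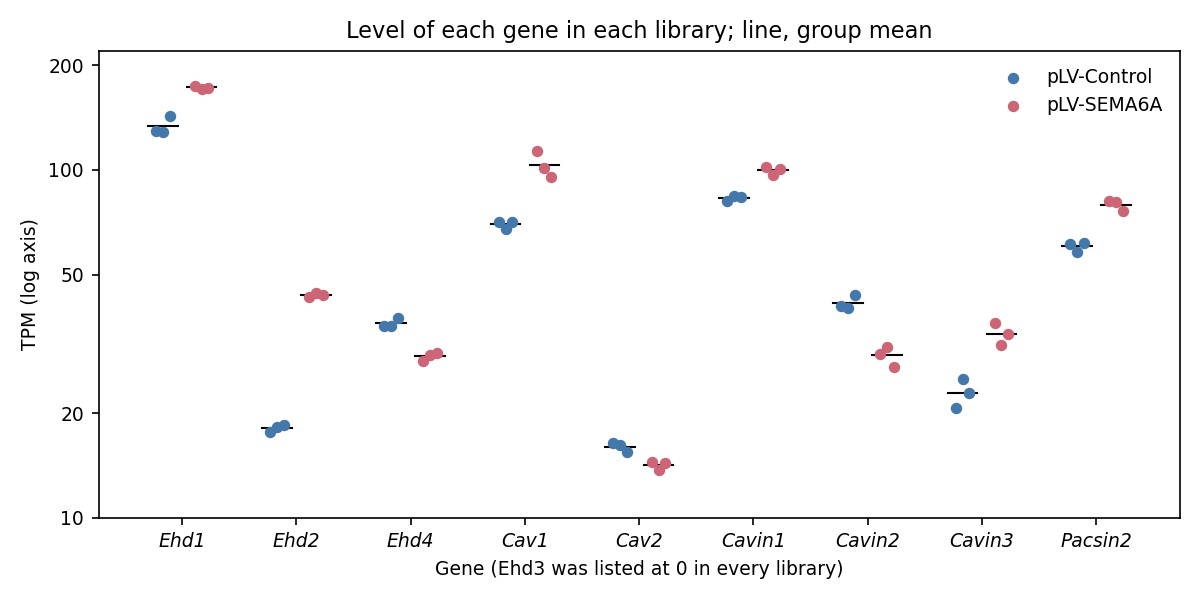
TPM (log axis) of 9 genes in each of the 3 pLV-Control and 3 pLV-SEMA6A libraries, with the group means as lines. Ehd2 moved from a mean of 18.1 to 43.7 TPM, and Ehd4, Cav2 and Cavin2 were the genes with lower pLV-SEMA6A means.

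Ehd2 (ENSMUSG00000074364, chromosome 7) read 17.7, 18.2 and 18.5 TPM in the control libraries, against 43.0, 44.4 and 43.8 TPM in those of pLV-SEMA6A. All pLV-SEMA6A libraries were far above all pLV-Control libraries, and the spread within each group was small. Group means were 18.1 ± 0.411 and 43.7 ± 0.704 TPM (± SD, 3 libraries a group), a ratio of 2.41 and a log2 fold change of 1.23 (standard error 0.04). In pLV-Control, 49.0% of the genes tested had a lower mean than Ehd2, and in pLV-SEMA6A 74.2% did. Transcripts of other genes contain 0.625% of its 31-base stretches, and none of these stretches lies in another of the 10 genes.

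The promoter of Ehd2 is shown because this gene changed most, and those of Cav1 and Cav2 because the pair are neighbours on chromosome 6 whose log2 fold changes differ in sign. Each sequence is the 250 bases before the transcription start in RefSeq (GRCm38.p6), 5′ to 3′, and 8 of the 10 genes were matched. Capitals mark the GC box GGGCGG, the CCAAT box CCAAT, the AP-1 site TGAGTCA and the TATA box TATAAA on either strand. The windows are chr7:15967536-15967785 on the minus strand for Ehd2, chr6:17306085-17306334 on the plus strand for the upstream start of Cav1, and chr6:17280935-17281184 on the plus strand for Cav2.
Ehd2: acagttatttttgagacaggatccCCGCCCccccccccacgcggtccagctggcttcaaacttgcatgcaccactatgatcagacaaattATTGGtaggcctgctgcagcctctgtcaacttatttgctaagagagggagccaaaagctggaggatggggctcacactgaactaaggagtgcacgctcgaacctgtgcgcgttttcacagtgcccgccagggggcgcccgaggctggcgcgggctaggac
Cav1: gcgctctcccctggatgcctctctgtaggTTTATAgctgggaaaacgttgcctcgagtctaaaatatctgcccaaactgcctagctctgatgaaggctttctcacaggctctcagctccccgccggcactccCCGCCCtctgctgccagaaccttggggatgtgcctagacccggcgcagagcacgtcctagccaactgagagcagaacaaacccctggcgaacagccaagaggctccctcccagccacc
Cav2: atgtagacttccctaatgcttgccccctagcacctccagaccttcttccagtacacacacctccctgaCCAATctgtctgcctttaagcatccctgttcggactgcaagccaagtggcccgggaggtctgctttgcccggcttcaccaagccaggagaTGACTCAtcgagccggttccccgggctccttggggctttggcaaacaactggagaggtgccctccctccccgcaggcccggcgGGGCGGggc
The windows held 58.0% G and C for Ehd2, 59.6% for Cav1 and 62.0% for Cav2, where the median over 32851 promoter windows was 52.4%. A GC box was present in each of the 3 windows and in 32.7% of all windows. A CCAAT box was found for Ehd2 and Cav2 and in 33.8% of all windows. Cav2 carried an AP-1 site, found in 4.46% of all windows, and Cav1 a TATA box at position −221, found in 12.4%. The window at the downstream RefSeq start of Cav1 held none of the motifs searched. The TEAD site GGAATG matched in none of these windows and in 12.6% of all windows. The interferon-stimulated element, the STAT site TTCNNNGAA and the CArG box matched in 2.98%, 7.02% and 1.47% of all windows, and in no window of the 8 matched genes.

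Among the other EHD genes, Ehd1 rose and Ehd4 fell. Ehd1 (ENSMUSG00000024772, chromosome 19), which drives exit of receptors from the recycling endosome, read 129, 129 and 143 TPM in the control libraries, against 175, 171 and 172 TPM in those of pLV-SEMA6A. It was the highest of the 10 genes in both groups, and its pLV-Control replicate 3 stood above replicates 1 and 2. Group means were 134 ± 8.19 and 173 ± 1.67 TPM (± SD, 3 libraries a group), a log2 fold change of 0.37 ± 0.05 (SE, limma adjusted p = 0.00089). Ehd4 (ENSMUSG00000027293, chromosome 2), which acts at early endosomes, read 35.5, 35.5 and 37.5 TPM in the control libraries, against 28.2, 29.5 and 29.7 TPM in those of pLV-SEMA6A. Its mean fell by 19.6%, with a log2 fold change of −0.31 ± 0.04 (SE, limma adjusted p = 0.00161). Ehd3 (ENSMUSG00000024065, chromosome 17), the close relative of Ehd1, was listed at 0 throughout. Ehd1 shared 10 of its 3669 stretches of 31 bases with Ehd3, and Ehd4 shared none with any gene.

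Shares within a library do not depend on how libraries are scaled to each other. The summed TPM of the EHD genes was 182.2, 182.4 and 199.0 in pLV-Control and 245.7, 245.2 and 245.7 in pLV-SEMA6A. Ehd1 made up 71.1 ± 0.696% of this sum in pLV-Control and 70.3 ± 0.623% in pLV-SEMA6A (± SD, 3 libraries a group), and the libraries of the groups overlapped. Ehd2 moved from 9.66 ± 0.359% to 17.8 ± 0.305%, and Ehd4 from 19.3 ± 0.359% to 11.9 ± 0.342%. Ehd4 was the second most abundant EHD transcript in pLV-Control, and Ehd2 held that place in pLV-SEMA6A. The ratio of Ehd1 to Ehd4 was 3.63, 3.62 and 3.81 in pLV-Control and 6.20, 5.81 and 5.80 in pLV-SEMA6A (exact permutation test, two-sided, p = 0.1).

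**Figure D2:**
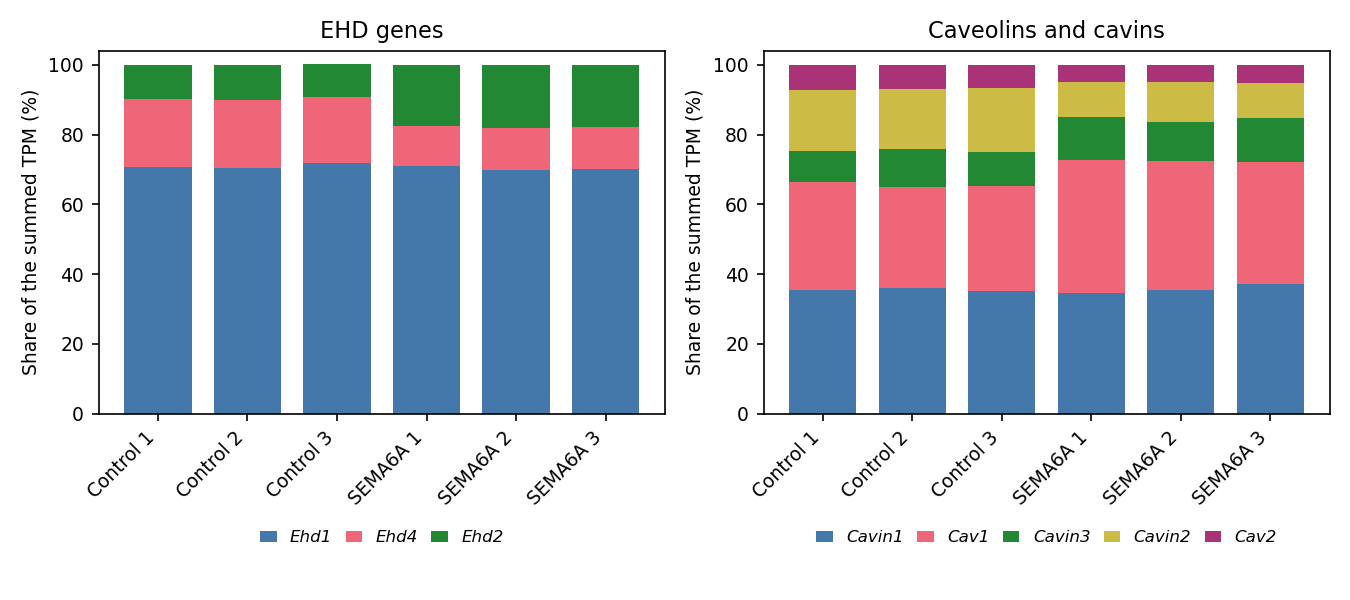
Share of the summed TPM in each library, for the EHD genes (left) and for the caveolins and cavins (right), stacked to 100%. Ehd2 took 9.66% of the EHD sum in pLV-Control and 17.8% in pLV-SEMA6A, Cavin2 went from 17.8% to 10.5% of the caveolin and cavin sum, and Cavin1 took 35.6% in both groups.

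The caveolins parted. Cav1 (ENSMUSG00000007655), the structural protein without which caveolae do not form in most cells, read 71.0, 67.6 and 70.8 TPM in the control libraries, against 113, 101 and 95.2 TPM in those of pLV-SEMA6A. The groups did not overlap, and the pLV-SEMA6A libraries were spread more widely. Group means were 69.8 ± 1.89 and 103 ± 9.17 TPM (± SD, 3 libraries a group), a log2 fold change of 0.55 ± 0.06 (SE, limma adjusted p = 0.000756). Cav2 (ENSMUSG00000000058), which needs caveolin-1 to reach the surface and forms oligomers with it, read 16.4, 16.2 and 15.5 TPM in the control libraries, against 14.4, 13.7 and 14.4 TPM in those of pLV-SEMA6A. It was the lowest of the 9 measured genes in both groups, with a log2 fold change of −0.17 ± 0.05 (SE, limma adjusted p = 0.0339). This call was lost when the libraries were centred on their median (−0.07, limma adjusted p = 0.281) and in 5 of the 6 fits that left out a library, all but the fit without pLV-Control replicate 3.

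Relative to each other, the caveolins moved further apart. The ratio of Cav1 to Cav2 was 4.33, 4.17 and 4.57 in pLV-Control and 7.84, 7.39 and 6.61 in pLV-SEMA6A, a difference of 0.74 in the log2 ratio. An exact permutation test (two-sided) gave p = 0.1 for this ratio, the smallest p that 3 libraries against 3 allow. The 6 ratios tested in this way were Cav1 to Cav2, Cavin1 to Cav1, Cavin1 to Cavin2, Cavin3 to Cavin2, Ehd1 to Ehd4 and Pacsin2 to Pacsin3. Each gave p = 0.1 (0.1 after adjustment over the 6, exact permutation tests), so none could pass 0.05 by design.

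The cavins did not move as a unit either. Cavin1 (ENSMUSG00000004044, chromosome 11), also named PTRF and required for the caveolar coat, read 81.6, 84.0 and 83.5 TPM in the control libraries, against 102, 97.0 and 100.4 TPM in those of pLV-SEMA6A. Its log2 fold change was 0.26 ± 0.03 (SE, limma adjusted p = 0.000793), the smallest of the rises. Cavin3 (ENSMUSG00000037060, chromosome 7), which binds protein kinase C delta, read 20.6, 25.1 and 22.8 TPM in the control libraries, against 36.2, 31.4 and 33.8 TPM in those of pLV-SEMA6A. It rose by as much as Cav1, with a log2 fold change of 0.55 ± 0.08 (SE, limma adjusted p = 0.00232). Its exons overlap by up to 374 bases with Gm45667 on the opposite strand, which holds 21.1% of its 31-base stretches and was at 0.14 TPM or less in every library. Whether reads were counted by strand is not given, so reads of the overlap cannot be told apart.
Cavin2 (ENSMUSG00000045954, chromosome 1), also named SDPR, which extends caveolar membranes into tubules, fell most among the 10 genes. It read 40.5, 40.1 and 43.8 TPM in the control libraries, against 29.6, 31.03 and 27.2 TPM in those of pLV-SEMA6A. The groups stood well apart, with a log2 fold change of −0.49 ± 0.06 (SE, limma adjusted p = 0.00101). The ratio of Cavin1 to Cavin2 was 2.01, 2.09 and 1.91 in pLV-Control and 3.44, 3.12 and 3.69 in pLV-SEMA6A, and that of Cavin3 to Cavin2 went from 0.552 ± 0.0634 to 1.16 ± 0.129 (± SD, 3 libraries a group). Cavin2 was more abundant than Cavin3 in every pLV-Control library and less abundant in every pLV-SEMA6A library, though barely so in pLV-SEMA6A replicate 2.

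The promoters of Cavin1 and Cavin2 are set side by side because these cavins moved in opposite directions. The windows are chr11:100970618-100970867 on the minus strand for Cavin1 and chr1:51288876-51289125 on the plus strand for Cavin2 (GRCm38.p6, 5′ to 3′), and capitals mark the same motifs and the TEAD site.
Cavin1: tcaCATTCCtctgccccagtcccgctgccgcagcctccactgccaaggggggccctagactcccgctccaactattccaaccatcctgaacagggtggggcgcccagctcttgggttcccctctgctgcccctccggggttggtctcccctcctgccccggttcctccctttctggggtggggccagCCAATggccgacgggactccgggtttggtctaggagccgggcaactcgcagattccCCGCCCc
Cavin2: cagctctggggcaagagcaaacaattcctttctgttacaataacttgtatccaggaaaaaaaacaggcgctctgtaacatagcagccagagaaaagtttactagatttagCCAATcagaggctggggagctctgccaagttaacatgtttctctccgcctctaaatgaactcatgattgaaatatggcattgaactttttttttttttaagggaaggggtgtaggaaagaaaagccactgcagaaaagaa
Cavin1 held 67.6% G and C and Cavin2 40.4%. Both carried a CCAAT box, Cavin1 also a GC box and a TEAD site read on the opposite strand, and Cavin2 none of the other motifs searched.

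Pacsin2 (ENSMUSG00000016664, chromosome 15) read 61.1, 58.2 and 61.7 TPM in the control libraries, against 81.3, 80.7 and 76.0 TPM in those of pLV-SEMA6A. Every pLV-SEMA6A library was above every pLV-Control library, with means of 60.4 ± 1.86 and 79.3 ± 2.93 TPM (± SD, 3 libraries a group). The log2 fold change was 0.39 ± 0.04 (SE, limma adjusted p = 0.000481). Its relative Pacsin3, which is most abundant in muscle, read 29.9, 21.9 and 19.9 TPM in the control libraries, against 21.0, 15.5 and 14.2 TPM in those of pLV-SEMA6A. In both groups replicate 1 of Pacsin3 was highest and replicate 3 lowest, and each pLV-SEMA6A library read below the same-numbered control library. The groups of Pacsin3 overlapped, and its log2 fold change of −0.47 ± 0.19 (SE, limma adjusted p = 0.0825) did not pass. Without pLV-SEMA6A replicate 1 it did (limma adjusted p = 0.0351), and the log2 fold change ran from −0.63 to −0.31 over the 6 fits that left out a library. Pacsin1, the neuronal form, was at 0.07 TPM or less in every library.

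**Figure D3:**
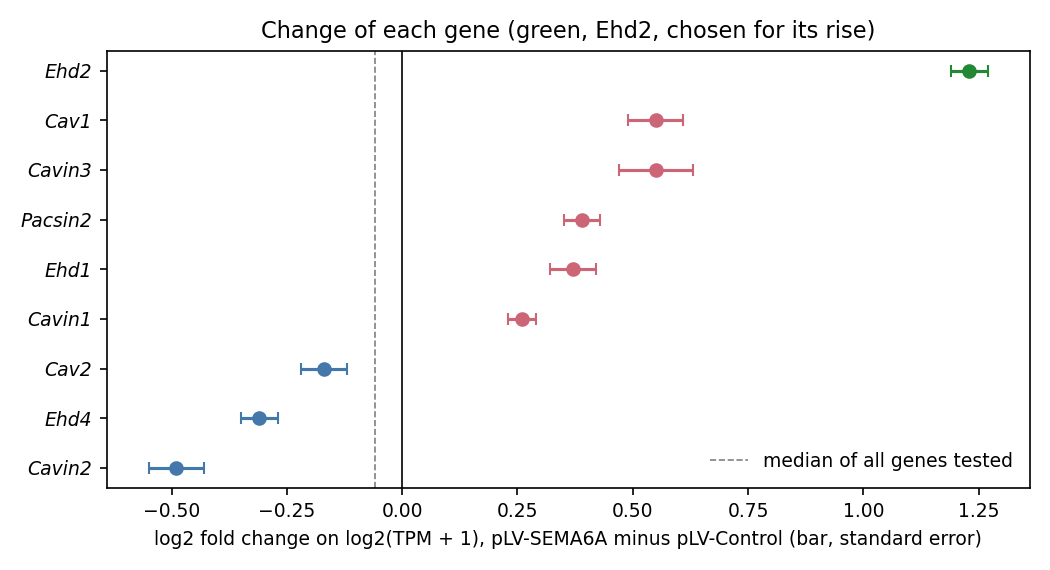
Log2 fold change of each measured gene, pLV-SEMA6A minus pLV-Control, with its standard error, and the median of all genes tested (−0.06) as a dashed line. Ehd2 (green) stands at 1.23, followed by Cav1 and Cavin3 at 0.55, and Cavin2 is lowest at −0.49.

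Ehd2, which was chosen for its rise, rose more than every other measured gene of the group, so its rank is a description only. The ratio of Ehd2 to Cav1 was 0.249, 0.270 and 0.261 in pLV-Control and 0.380, 0.439 and 0.460 in pLV-SEMA6A. The ratio of Ehd2 to Cavin1 went from 0.218 ± 0.00256 to 0.439 ± 0.0178 (± SD, 3 libraries a group). The summed TPM of the caveolins and cavins was 230.1, 233.0 and 236.4 in pLV-Control and 295.2, 274.1 and 270.9 in pLV-SEMA6A, or 233.2 ± 3.16 and 280.0 ± 13.2 on average (± SD, 3 libraries a group). Within this sum, Cav1 took 29.9 ± 0.914% in pLV-Control and 36.8 ± 1.61% in pLV-SEMA6A, and Cavin2 17.8 ± 0.671% and 10.5 ± 0.749%. Cavin1 took 35.6 ± 0.387% and 35.6 ± 1.31%.
In order of TPM, pLV-Control had Ehd1, Cavin1, Cav1, Pacsin2, Cavin2, Ehd4, Cavin3, Ehd2 and Cav2, and no neighbours in that order overlapped between their 3 libraries. In pLV-SEMA6A the order was Ehd1, Cav1, Cavin1, Pacsin2, Ehd2, Cavin3, Cavin2, Ehd4 and Cav2. There, Cav1 overlapped with Cavin1 and Cavin2 with Ehd4.

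Other genes of the caveola were called in both directions. Of 18 caveola-associated genes outside the 10, 11 were tested, 4 were higher and 3 lower (19.5% and 28.2% of all genes tested), and the median log2 fold change was 0.10 (−0.06 over all genes tested). Flna, a filamin that ties caveolin-1 to actin, read 245, 257 and 238 TPM in the control libraries, against 382, 369 and 376 TPM in those of pLV-SEMA6A. Its log2 fold change of 0.60 ± 0.03 (SE, limma adjusted p = 3.39e-05) was close to that of Cav1. Cavin4, the muscle cavin, was low, at 3.67 ± 0.962 and 5.98 ± 0.545 TPM (± SD, 3 libraries a group), with a log2 fold change of 0.60 ± 0.16 (SE, limma adjusted p = 0.0207). It lost the threshold without pLV-Control replicate 1, pLV-Control replicate 3 or pLV-SEMA6A replicate 1 (adjusted p of up to 0.0667). Dnm1, a dynamin GTPase best known from neurons, went down, from 15.1 ± 0.236 in pLV-Control to 7.48 ± 0.397 TPM (± SD, 3 libraries a group), with a log2 fold change of −0.92 ± 0.06 (SE, limma adjusted p = 6.3e-05). Dnm2, the dynamin of most tissues, had a log2 fold change of −0.04 and did not pass.
Cav3, the muscle caveolin, and Ror1, a receptor that can act as a caveolar scaffold, were listed at 0 in every library. Pacsin1, Nostrin, Dnm3, Cd36 and Nos3 did not reach the filter, with a highest value of 0.35 TPM, for Nostrin. Without pLV-Control replicate 2, the number of higher genes in this list went from 4 to 2. Over all genes tested, 2105 of 12465 were higher in that fit, against 2436 of 12510 in the main fit.

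Genes that work with EHD proteins in recycling were called in both directions as well. All 20 listed partners and recycling endosome genes were tested, 8 were higher and 8 lower, where 19.5% of all genes tested were higher and 28.2% lower, and the median log2 fold change was −0.02. Tfrc, the transferrin receptor and a standard cargo of the recycling route, went up, from 15.0 ± 0.469 in pLV-Control to 25.3 ± 1.55 TPM (± SD, 3 libraries a group), with a log2 fold change of 0.72 ± 0.06 (SE, limma adjusted p = 0.000161). The 3 falls past 0.5 were those of Rab11a, a small GTPase that steers recycling vesicles to the surface, and of the RAB11 effectors Rab11fip1 and Rab11fip5. Rab11a read 152, 156.5 and 180.4 TPM in the control libraries, against 116, 102 and 110.3 TPM in those of pLV-SEMA6A, a log2 fold change of −0.57 ± 0.08 (SE, limma adjusted p = 0.00134). Rab11fip1 and Rab11fip5 had log2 fold changes of −0.67 and −0.62. Rab11b, the paralog of Rab11a, went the other way, with a log2 fold change of 0.36. Micall1 and Ehbp1, which bind EHD proteins directly, had log2 fold changes of −0.38 and −0.40, and Ehbp1l1 one of −0.16. The 4 genes of the list that did not pass were Rab8a (0.24), Rbsn (−0.11), Snap29 (0.07) and Numb (−0.18). Nothing is read from these genes about EHD partners as a class.

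Of 6 other proteins with an EH domain, 5 were tested. Eps15l1, an adaptor of clathrin-coated pits, passed with a log2 fold change of 0.21 ± 0.05 (SE, limma adjusted p = 0.0159), and not without pLV-SEMA6A replicate 3 (adjusted p = 0.0514). Reps1 had the next largest value, −0.13 ± 0.05 (SE, limma adjusted p = 0.0685), and Reps2 did not reach the filter. The clathrin coat, the other coated route into the cell, had 4 of 14 tested genes higher and 4 lower, beside the same background of 19.5% and 28.2%, with a median log2 fold change of 0.03. When libraries were centred on their median, 7 were higher and 2 lower, beside 26.9% and 19.8% of all genes. Dab2, a cargo adaptor for clathrin, went down, from 33.0 ± 0.501 in pLV-Control to 18.0 ± 2.37 TPM (± SD, 3 libraries a group), with a log2 fold change of −0.85 ± 0.09 (SE, limma adjusted p = 0.000494). Fcho2, which nucleates clathrin-coated pits, had a log2 fold change of −0.54, and Fcho1 did not reach the filter.

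**Figure D4:**
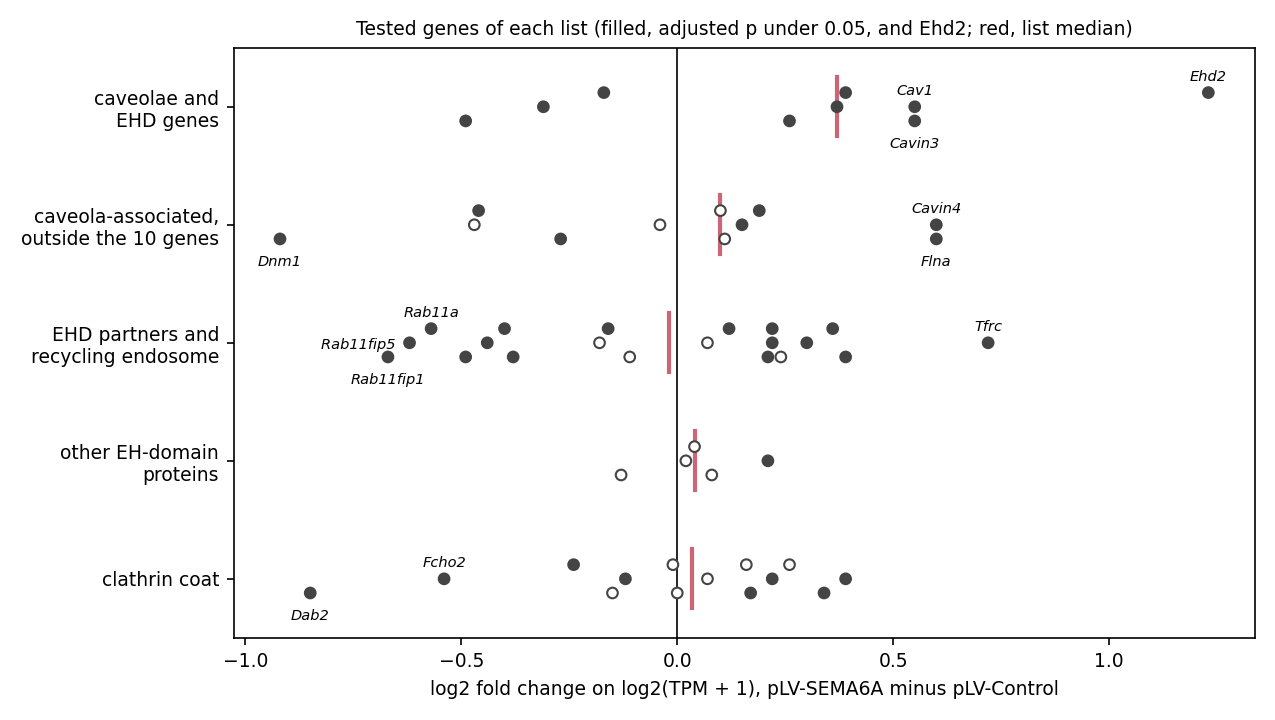
Log2 fold change of every tested gene in each list, pLV-SEMA6A minus pLV-Control, with list medians in red. Filled points passed an adjusted p of 0.05 (Ehd2 is drawn filled without a test), and the median of 0.37 for the caveolae and EHD genes includes Ehd2, whose rise led to the choice of the group (0.32 without it).

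Caveolar genes are high in several cell types, so markers of those cells were read in the same libraries. The 8 endothelial markers summed to between 0.19 and 0.56 TPM and the 6 leukocyte markers to at most 0.06 TPM in any library. The 6 adipocyte markers summed to between 0.46 and 2.32 TPM, with Lep and Cidec listed at 0. Among 7 muscle genes, 3 reached a mean of 1 TPM, namely Acta2, Cnn1 and Tagln, while Myh11, Des, Myog and Ckm did not. All 7 summed to 64.9 to 69.2 TPM in pLV-Control and to 181 to 189 TPM in pLV-SEMA6A. Acta2, smooth muscle actin, went up, from 31.2 ± 1.93 in pLV-Control to 94.1 ± 2.83 TPM (± SD, 3 libraries a group), with a log2 fold change of 1.57 ± 0.05 (SE, limma adjusted p = 4.8e-06). Of 8 fibroblast markers, 5 reached a mean of 1 TPM, and the sum of all 8, mostly Col3a1, was 126 to 143 TPM in pLV-Control and 184 to 189.9 TPM in pLV-SEMA6A. The fibroblast list did not move in a single direction. Of its 5 genes above the filter, the collagens Col3a1 and Col1a1 were higher (log2 fold changes of 0.53 and 1.02, limma adjusted p = 0.000345 and 0.000681). The receptors for platelet-derived growth factor were lower, with log2 fold changes of −0.59 for Pdgfrb (10.5 and 6.66 TPM, limma adjusted p = 0.000442) and −0.63 for Pdgfra (1.76 and 0.78 TPM, limma adjusted p = 0.0219). Dcn had a log2 fold change of −0.08 and did not pass. Of the genes below the filter, Thy1 read less in each pLV-SEMA6A library than in any control library. Col1a2 read more in each (means of 0.42 and 0.87 TPM), and the groups of Lum overlapped. The part of Acta2, Cnn1, Tagln and the collagens, which were higher in pLV-SEMA6A like Ehd2, Cav1 and Cavin1, was not tested.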

How the data were processed

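Poly-A RNA was sequenced on an Illumina instrument, in 3 pLV-Control and 3 pLV-SEMA6A libraries. Values were deposited by the authors as TPM per gene and library (a unit read from the values, since the header names none). The submitters' processing notes name HISAT, Bowtie2, RSEM and the build mm39. Versions, annotation and strandedness are not given in the sources used here. The study names DESeq2, which needs read numbers that TPM does not hold. The authors' group means were not used.

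The 10 genes, the other lists and the tests were chosen with earlier results of these data known. Other lists name genes that passed with an absolute log2 fold change over 0.5, or else the 2 largest, and genes below the filter. Rab11b, Micall1, Ehbp1, Ehbp1l1, Rab8a, Rbsn, Snap29, Numb, Arf6, Dnm2, Pacsin3 and the markers given with values were named after their values were seen. limma 3.58.1 (R 4.3.3, trend option) was fitted to log2(TPM + 1), which understates changes of low genes, with Benjamini-Hochberg adjustment over 12510 genes, and was tested on simulated data. Same-numbered libraries did not deviate together (mean correlation −0.059 over 3 pairs). Promoters (RefSeq, GRCm38.p6), gene order and transcripts (GENCODE M21, 97.0% of identifiers matched) are of another build than the files. Alternatives were another pseudocount, filters, scalings, no trend, a minimum fold change, the replicate block and leaving out each library.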

Additional observations from a re-analysis of the deposited data

How the results depend on the processing

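Ehd1, Ehd4, Cav1, Cavin1, Cavin2, Cavin3 and Pacsin2 kept their direction and stayed under an adjusted p of 0.05 in limma in each alternative that set no minimum fold change. Cav2 kept its direction and lost the threshold without a filter on low values (−0.17, adjusted p = 0.0573 from limma), with libraries centred on their median (−0.07, adjusted p = 0.281), with libraries rescaled without the 10 highest genes (−0.15, adjusted p = 0.0534) and in 5 of the 6 fits that left out a library (limma adjusted p up to 0.101). Over all 6 of these fits its log2 fold change ran from −0.19 to −0.14, and the fit without pLV-Control replicate 3, at −0.19, kept the call. Where Cav2 lost the threshold, 2 of the 10 genes fell in place of 3. Ehd2, described without a test, had a log2 fold change of 1.27 with a pseudocount of 0.1, 1.32 after centring, 1.26 after rescaling and 1.21 to 1.24 with a library left out. Its share of the EHD sum was 7.96 to 8.32 percentage points higher in pLV-SEMA6A with a library left out.

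What the replicate numbers stand for is not given in the sources used here. With the group mean of each gene taken off, same-numbered libraries correlated from −0.079 to −0.023. With the replicate block, 5227 of 12510 genes passed in place of 5959, 2168 of them higher and 3059 lower. Of the 10 genes, 6 were higher (Ehd2, not tested, is counted here) and 2 lower, and the adjusted p of Cav2 was 0.0848 from limma. The block changed no other call among the 10 genes. With it, the 11 tested caveola-associated genes, Pacsin3 among them, had 3 higher and 4 lower, against 4 and 3 without it.

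A minimum absolute log2 fold change of 0.5 left 5.12% of all genes tested higher and 10.8% lower. Among the 10 genes it left 2 higher besides Ehd2 and 0 lower by limma (3 lower without the minimum). Cav1 and Cavin3, which passed this minimum, and Cavin2, which did not, lay near the cut. With a library left out, they ran from 0.48 to 0.61, from 0.48 to 0.61 and from −0.53 to −0.44. The minimum left 2 higher and 1 lower among 11 tested caveola-associated genes, and 1 and 3 among 20 EHD partners. It left 0 higher among 5 other EH-domain proteins, and 0 and 2 among 14 genes of the clathrin coat. Without a filter on low values, 2 of 16 tested caveola-associated genes were higher and 3 lower, beside 2152 and 3196 of 24518 genes. With a library left out, this list had 2 to 4 higher and 3 to 4 lower. In those fits, 2095 to 2141 of all genes tested were higher and 2917 to 3146 lower. Other EH-domain proteins had 0 to 1 higher and 0 to 1 lower with a library left out. EHD partners had 7 to 8 higher and 7 to 8 lower with a library left out. Arf6 (0.12, limma adjusted p = 0.0466), 1 of the 8 higher partners, lost the threshold in 5 of those 6 fits. Centring gave 7 higher and 2 lower in the clathrin coat, and 9 and 7 among EHD partners, beside 26.9% and 19.8% of all genes tested. The unknown depth limits what can be said of genes listed at or near 0.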

Other observations

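Genes beside Ehd2 and the caveolins were read in GENCODE M21 gene order. Of the 5 nearest tested genes on each side of Ehd2, 2 were higher and 2 lower in pLV-SEMA6A, where 19.5% and 28.2% of all genes tested were. The nearest, Nop53 and Bicra, had log2 fold changes of −0.44 ± 0.03 (SE, limma adjusted p = 0.000152) and −0.14 ± 0.11 (SE, limma adjusted p = 0.303). Mrip-ps, a pseudogene by its name, went from a mean of 0.573 to 9.34 TPM, a log2 fold change of 2.68 ± 0.38 (SE, limma adjusted p = 0.00162). Around Cav1 and Cav2, the changes past the threshold among the 10 nearest tested genes were falls of Tes (−0.18) and Mdfic (−0.26), beside the same shares. Met, the receptor for hepatocyte growth factor and the next tested gene after Cav1, had a log2 fold change of 0.03 ± 0.07 (SE, limma adjusted p = 0.778).

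The 5 genes whose log2(TPM + 1), centred on the gene mean, lay nearest to Ehd2 over the 6 libraries were Uchl1, Igfbp6, Tagln, Cth and Pstpip2, with Euclidean distances of 0.101 to 0.185. Uchl1, a neuronal ubiquitin hydrolase, was at a mean of 80.1 and 189.7 TPM in the groups, and Tagln, an actin-binding protein of contractile cells, at 31.4 and 79.9 TPM. For Cav1 they were Dkc1, P3h4, Thg1l, Parva and Rpl7l1, with distances of 0.0685 to 0.119. Parva, a parvin of focal adhesions, was at 42.1 and 59.7 TPM, and Dkc1, the pseudouridine synthase dyskerin, at 86.0 and 127 TPM. The distances are descriptions over 6 libraries in 2 groups, among 12509 genes.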
